A study of Homo sapiens with 12 samples.

Results

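LAPTM5, CSF1R, CORO1A, HCLS1, TNFAIP8L2 and PTPN22 are genes best known from leukocytes, and all 6 were found among the 12931 genes listed for libraries of the melanoma line WM1366. They were taken by symbol and had been chosen by their normalised read values in these same libraries, which looked specific to a group, so their levels are described here without a test. The levels of PTPN22 went against that label, since the values of the 3 groups overlapped. WM1366 is an established human cutaneous melanoma line, and RNA was sequenced from 12 libraries in 3 groups of 4. The groups named R1 and R2 carried the label of a diet with a MEK and a CDK4/6 inhibitor, the kinases of the RAS pathway and of entry into the cell cycle, and the control group that of a control diet. The series describes WM1366 xenograft tumours that progressed on these diets, and its title concerns acquired resistance. The sample labels describe cultured melanoma cells, with 0.1 µM palbociclib (PD0332991), a CDK4/6 inhibitor, and 1 nM PD0325901, a MEK inhibitor, named for every library, control included. They say neither what separates R1 from R2 nor whether the libraries of a group come from separate tumours, so p-values measure the spread between these libraries alone.

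Leukocytes share a set of proteins that other tissues make little of. CSF1R is the surface receptor tyrosine kinase for the growth factors CSF1 and IL34, on which macrophages depend. LAPTM5 is a lysosomal membrane protein that lowers antigen receptors at the cell surface, and CORO1A and HCLS1 act on the actin cortex, CORO1A as a coronin and HCLS1 as the haematopoietic relative of cortactin. TNFAIP8L2 restrains signalling from Toll-like and T cell receptors, and PTPN22 is a tyrosine phosphatase that works with the kinase CSK to switch off Src-family kinases in lymphocytes.

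Values are normalised reads as deposited, scaled by library size, and recovered reads in the listed genes ranged from 20003891 to 39009384 per library. By limma, 22.4% of all genes were higher and 21.4% lower in R1 against control, 13.6% higher and 14.8% lower in R2 against control, and 22.8% higher and 24.0% lower in R2 against R1, at an adjusted p under 0.05. Transcripts of the mitochondrial genome took 2.17% to 3.28% of reads in R1, 4.02% to 9.63% in R2 and 5.86% to 10.9% in control, so a low share went along with every value that sets R1 apart, and its part in these results was not tested. R1 replicate 2 stood apart from the other R1 libraries on the third principal component of all genes, which held 8.65% of the variance. It scored 38.6 there, against -19.2 to -4.3 in the other R1 libraries. Of the melanoma and melanocyte markers 3 of 12 were measured. AXL, a receptor kinase of undifferentiated melanoma, was at 825 ± 144 in R1, 1440 ± 96.5 in R2 and 1580 ± 80.1 in control (SD, n = 4 each). PMEL was at 27.1 ± 6.14, 8.81 ± 2.61 and 5.32 ± 1.15 in the same order, and MITF at 23.5 ± 6.08, 30.4 ± 2.47 and 50.3 ± 9.08. AXL and MITF were thus lower in R1 than in control, and PMEL was higher. Of 25 markers that define leukocytes 1 was measured here, CD33, a surface lectin of myeloid cells. PTPRC, CD14, CD68, CD163, CD3E and the rest of that list were not found by symbol among the listed genes, so their levels are not known here. In bulk RNA, fewer cells of a type and less RNA per cell cannot be told apart, and reads of mouse host cells were not separated here.

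The start regions of CSF1R, LAPTM5, HCLS1 and TNFAIP8L2, the genes with the widest range between groups, are shown so that the letters around their starts can be read beside the levels. Each run holds 250 bases before to 50 bases after a start site (RefSeq, GRCh38.p14), 5′ to 3′ on the gene's strand. Capitals mark matches, on either strand, to GAGGAAG (PU.1 type), CCGGAAG (ETS), TGTGGT (RUNX), TGANTCA (AP-1), CACGTG (E-box), TATAAA and GGGCGG (GC box). CSF1R has 2 annotated starts, of which the downstream one is the start known from macrophages and the upstream one is known from placenta.
CSF1R upstream start, chr5:150113316-150113615, minus strand: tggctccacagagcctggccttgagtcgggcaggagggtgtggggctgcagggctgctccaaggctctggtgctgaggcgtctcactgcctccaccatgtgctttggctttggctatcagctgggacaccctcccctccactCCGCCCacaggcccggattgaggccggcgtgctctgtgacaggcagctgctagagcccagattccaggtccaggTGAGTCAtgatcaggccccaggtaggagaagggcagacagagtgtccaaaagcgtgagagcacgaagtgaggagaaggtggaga
CSF1R downstream start, chr5:150086505-150086804, minus strand: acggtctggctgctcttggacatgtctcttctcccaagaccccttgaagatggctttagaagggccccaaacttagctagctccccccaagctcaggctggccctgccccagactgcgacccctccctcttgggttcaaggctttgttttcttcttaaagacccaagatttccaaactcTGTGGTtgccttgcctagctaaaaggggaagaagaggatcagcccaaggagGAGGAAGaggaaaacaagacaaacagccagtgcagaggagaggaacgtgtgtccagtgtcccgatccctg
LAPTM5, chr1:30757725-30758024, minus strand: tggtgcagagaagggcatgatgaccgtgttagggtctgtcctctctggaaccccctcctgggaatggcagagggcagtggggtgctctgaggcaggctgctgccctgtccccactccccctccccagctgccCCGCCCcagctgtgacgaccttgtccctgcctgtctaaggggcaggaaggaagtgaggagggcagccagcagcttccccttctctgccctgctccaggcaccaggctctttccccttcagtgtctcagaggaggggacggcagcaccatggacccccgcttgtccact
HCLS1, chr3:121660854-121661153, minus strand: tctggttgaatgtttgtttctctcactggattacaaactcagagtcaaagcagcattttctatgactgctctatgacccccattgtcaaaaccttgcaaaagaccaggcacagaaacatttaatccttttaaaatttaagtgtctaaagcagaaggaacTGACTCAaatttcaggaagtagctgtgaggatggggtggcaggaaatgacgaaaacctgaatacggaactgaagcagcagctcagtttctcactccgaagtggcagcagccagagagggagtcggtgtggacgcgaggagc
TNFAIP8L2, chr1:151156399-151156698, plus strand: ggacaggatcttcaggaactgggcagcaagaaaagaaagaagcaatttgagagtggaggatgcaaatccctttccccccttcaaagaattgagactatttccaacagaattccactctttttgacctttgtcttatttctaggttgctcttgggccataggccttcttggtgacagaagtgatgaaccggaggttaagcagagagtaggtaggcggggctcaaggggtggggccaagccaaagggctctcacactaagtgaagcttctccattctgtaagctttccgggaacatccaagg
The downstream CSF1R window held 1 GAGGAAG and 1 TGTGGT, and the upstream one 1 TGANTCA and 1 GGGCGG. Windows of LAPTM5 and HCLS1 held 1 match each, to GGGCGG and TGANTCA, and that of TNFAIP8L2 held none. The window of PTPN22, not printed, held 3 matches to TGTGGT, and that of CORO1A 3 to GGGCGG. Among 35116 windows of the same length, GAGGAAG stood in 13.6%, CCGGAAG in 10.3%, TGTGGT in 13.1%, TGANTCA in 7.71%, CACGTG in 7.26%, TATAAA in 11.5% and GGGCGG in 45%. None of these motifs overlaps another in the printed windows, and a match of letters does not show that a factor binds.

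Between groups, every R1 library lay above every control library for 4 of the 6 genes, LAPTM5, CORO1A, HCLS1 and TNFAIP8L2, and below for none, where 20.8% of all listed genes lay above and 19.0% below. Every R2 library lay above every control library for CORO1A and HCLS1 and below for LAPTM5 and CSF1R, where 18.0% of all listed genes lay above and 16.8% below. Every R2 library lay above every R1 library for HCLS1 and below for LAPTM5, CSF1R, CORO1A and TNFAIP8L2, where 19.1% of all listed genes lay above and 20.3% below. The members were picked for these differences, so nothing is read from the counts. Both comparisons with control used the same control libraries.

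**Figure D1:**
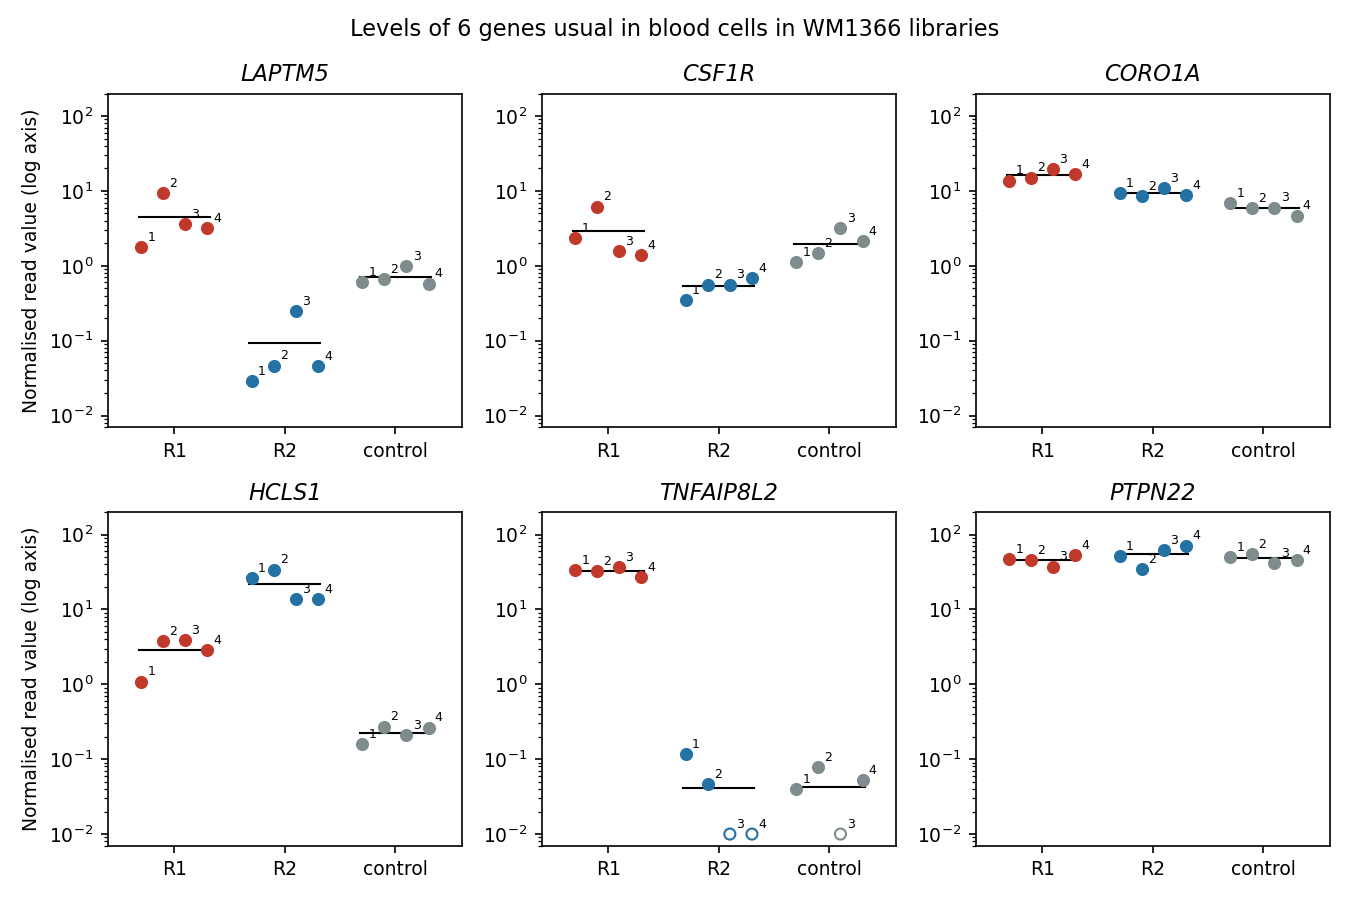
Normalised read value of each of the 6 genes in every library of R1, R2 and control (log axis, replicate numbers beside the points, bars at the group mean of 4, open circles at 0.01 for libraries without a read). TNFAIP8L2 sits between 27.3 and 37.1 in R1 and at 0.116 or less elsewhere, HCLS1 is highest in R2, LAPTM5 is highest in R1 and lowest in R2, and PTPN22 overlaps between all groups.

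The receptor CSF1R (chromosome 5, 150053295 to 150113365) was at 2.35, 6.19, 1.56 and 1.39 in R1 replicates 1 to 4, at 0.349, 0.559, 0.562 and 0.688 in R2, and at 1.12, 1.48, 3.18 and 2.15 in control. R2 was low in all 4 libraries, while R1 and control overlapped and R1 replicate 2 was far above the other R1 libraries. Means were 2.87 ± 2.25 in R1, 0.539 ± 0.141 in R2 and 1.98 ± 0.904 in control (SD, n = 4 each). R2 was 3.68-fold below control, with a 95% counting interval of 2.71 to 5.06 from 57 reads in R2 and 168 in control. R1 was 1.45-fold above control, and without R1 replicate 2 it turned to 0.891-fold, at 1.77 ± 0.515 (SD, n = 3). Within both R1 and control the libraries with the higher scores on the third component had higher CSF1R than the others, with R1 replicate 2 at 38.6 and control replicates 3 and 4 at 13.5 and 10.9, against -18.6 and -10.8 in control replicates 1 and 2, with R1 replicate 1 at -4.3 next within R1. R2 did not show this order. Its replicate 2 scored highest at 13 with CSF1R at 0.559 (12 reads), and replicate 4 scored -3.1 with CSF1R at 0.688 (15 reads). The part of the third component in the CSF1R levels was not tested.

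PDGFRB, a related receptor kinase of fibroblasts and pericytes, has its annotated span 474 bases from that of CSF1R and was at 2.48 to 9.08 in R1, 0.116 to 0.468 in R2 and 1.56 to 5.78 in control. It fell in R2 against control (0.331 ± 0.167 against 4.03 ± 2.02, limma log2 fold change -2.34 with an SE of 0.37, adjusted p = 0.0003) and did not pass in R1 (5.05 ± 2.84, log2 fold change 0.30, adjusted p = 0.54). HMGXB3, 167 bases away on the other side, was at 260 ± 10.7 in R1, 211 ± 15.2 in R2 and 213 ± 13.9 in control. It rose in R1 (log2 fold change 0.29, adjusted p = 0.017, 0.061 without control replicate 2) and did not pass in R2 (-0.01, adjusted p = 0.92). Of 23 tested genes within 1 Mb of CSF1R, 8 rose and 3 fell in R1 and 4 rose and 3 fell in R2 against control. Comparing R2 with R1, 6 rose and 7 fell. For this, the neighbour counts and the counts of CSF1R partners below, 22.4% of all genes rose and 21.4% fell in R1 against control. The shares were 13.6% and 14.8% in R2 against control, and 22.8% and 24.0% in R2 against R1.

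Ligands and signalling partners of CSF1R were measured for 11 of 14 genes. In R1 against control 1 rose and 2 fell, with a median log2 fold change of 0.18, and in R2 against control 3 rose and 1 fell, with a median of 0.04, where the medians of all genes were 0.01 and 0.03. The adaptor SHC1 rose in R1 (344 ± 52.4 against 198 ± 21.6 in control, log2 fold change 0.79, adjusted p = 9.8e-05) and in R2 (341 ± 20.1, log2 fold change 0.79, adjusted p = 0.00017). SOS1, which loads RAS with GTP, fell in R1 (26.0 ± 5.40 against 42.4 ± 5.56 in control, log2 fold change -0.71, adjusted p = 0.0016), as did the ubiquitin ligase CBLB (-1.04, adjusted p = 0.0015). In R2 SOS1 rose (60.4 ± 4.2, log2 fold change 0.51 against control, adjusted p = 0.019), a call that did not hold without R2 replicate 4 or without control replicate 3 (adjusted p = 0.054 and 0.068, with 0.0034 to 0.068 over all alternatives). PIK3R1, the regulatory subunit of PI3-kinase, rose in R2 (49.8 ± 6.81 against 29.7 ± 5.36 in control, log2 fold change 0.74, adjusted p = 0.0045). The ligand CSF1 was at 9.15 ± 2.99 in R1, 4.56 ± 1.48 in R2 and 7.83 ± 2.47 in control, and fell in R2 against R1 (log2 fold change -0.91, adjusted p = 0.016). This call was lost when R2 replicate 1 was left out (adjusted p = 0.054, with 0.0023 to 0.054 over all alternatives).

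LAPTM5 (chromosome 1, 30732469 to 30757774), the lysosomal member, was at 1.77, 9.35, 3.61 and 3.21 in R1, at 0.0291, 0.0465, 0.25 and 0.0459 in R2, and at 0.601, 0.662, 0.99 and 0.578 in control. No 2 groups overlapped, and the order was R1, control, R2. Means were 4.48 ± 3.34 in R1, 0.0928 ± 0.105 in R2 and 0.708 ± 0.191 in control (SD, n = 4 each). R1 was 6.34-fold above control, and 4.05-fold above it without R1 replicate 2, which held 213 of the 485 R1 reads. R2 was 7.63-fold below control, with a counting interval of 3.98 to 16.1, on 11 reads in R2, 8 of them in replicate 3, and 62 in control. R2 was 48.3-fold below R1 (26.8 to 97.5).

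Of 10 tested genes within 1 Mb of LAPTM5, all on its side of higher coordinates, 5 rose and 1 fell in R1 against control, and 1 rose and 5 fell in R2 against control. From R1 to R2, 1 of these genes rose and 6 fell. The nearest, SDC3, a cell surface proteoglycan 111692 bases away, rose in R1 (5.45 ± 3.79 against 0.519 ± 0.153 in control, log2 fold change 2.30, adjusted p = 0.00043), with 1.79 ± 0.844 in R2 (1.10, adjusted p = 0.056). The family relatives LAPTM4A and LAPTM4B, lysosomal proteins made in most tissues, were far less variable. LAPTM4A was at 82.5 ± 11.9 in R1, 94.2 ± 11.4 in R2 and 88.2 ± 3.52 in control and passed in no comparison (adjusted p of 0.17 to 0.60). LAPTM4B rose in R1 (218 ± 37.9 against 143 ± 7.24 in control, log2 fold change 0.59, adjusted p = 0.0025).

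CORO1A (chromosome 16, 30183602 to 30189076), the coronin of leukocytes, was at 13.7, 15.0, 19.7 and 16.9 in R1, at 9.36, 8.52, 11 and 8.72 in R2, and at 6.85, 5.92, 5.99 and 4.67 in control. No 2 groups overlapped, and the libraries of a group lay close together. Means were 16.3 ± 2.59 in R1, 9.40 ± 1.12 in R2 and 5.86 ± 0.897 in control (SD, n = 4 each), so that R1 was 2.78-fold and R2 1.6-fold above control, and R2 1.74-fold below R1. These levels rest on 1970 R1 reads, 1047 R2 reads and 527 control reads. CORO1A-AS1, an antisense transcript not analysed here, overlaps its first part, and the library kit does not mark strand, so reads of the pair cannot be told apart.

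Of 59 tested genes within 1 Mb, 5 rose and 21 fell in R1 and 3 rose and 7 fell in R2 against control, with median log2 fold changes of -0.23 and -0.09. Set against R1, R2 had 18 risen and 2 fallen, with a median of 0.18. MAPK3, which codes for the kinase ERK1 and lies 60382 bases away, fell in R1 (51.7 ± 7.96 against 93.1 ± 10.6 in control, log2 fold change -0.85, adjusted p = 5.2e-05). Among the other coronins, CORO2B was at 11.8, 16.4, 19.4 and 19.4 in R1, with 1 read in each R2 library (0.0291 to 0.0465) and 0.208 to 0.321 in control. Its rise in R1 was the largest among the 13 measured family relatives of the members (16.8 ± 3.59 against 0.266 ± 0.046 in control, log2 fold change 4.47 with an SE of 0.17, adjusted p = 1.4e-10). CORO2A fell in R1 (2.72 ± 0.923 against 5.50 ± 0.566 in control, log2 fold change -0.94, adjusted p = 0.0096) and in R2 (0.465 ± 0.353, log2 fold change -2.71, adjusted p = 3.7e-06). CORO1B and CORO1C, coronins of most tissues, passed in no comparison (adjusted p of 0.061 to 0.99), with CORO1C at 480 ± 88.2 in R1, 475 ± 18.9 in R2 and 472 ± 20.0 in control.

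HCLS1 (chromosome 3, 121631399 to 121660903), which binds the ARP2/3 complex and is phosphorylated below antigen receptors, was at 1.09, 3.77, 3.91 and 2.87 in R1, at 26.1, 34.0, 13.6 and 13.7 in R2, and at 0.16, 0.273, 0.208 and 0.263 in control. No 2 groups overlapped, and the order was R2, R1, control. R2 replicates 1 and 2 were higher than replicates 3 and 4, and R1 replicate 1 was the lowest of R1. Means were 2.91 ± 1.30 in R1, 21.8 ± 9.99 in R2 and 0.226 ± 0.0521 in control (SD, n = 4 each). R2 was 96.6-fold above control, with a counting interval of 62.4 to 158 from 2360 reads in R2 and 20 in control, and R1 was 12.9-fold above control (8.21 to 21.4). R2 was 7.50-fold above R1.

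Of 12 tested genes within 1 Mb of HCLS1, 8 fell in R1 against control, with a median log2 fold change of -0.48, and 1 rose in R2, with a median of 0.14. Comparing R2 with R1, where HCLS1 was 7.50-fold higher, 11 rose and none fell, with a median of 0.66. Of all genes 22.8% rose in that comparison. GOLGB1, a Golgi protein 2298 bases away, was at 66.3 ± 11.7 in R1, 113 ± 19.5 in R2 and 92.4 ± 7.57 in control, and fell in R1 (log2 fold change -0.49, adjusted p = 0.01). CTTN, the cortactin that most tissues use in place of HCLS1, rose in R1 (333 ± 42.5 against 240 ± 4.86 in control, log2 fold change 0.46, adjusted p = 0.0024) and did not pass in R2 (251 ± 20.4, log2 fold change 0.06, adjusted p = 0.73).

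TNFAIP8L2 (chromosome 1, 151156649 to 151159749) was at 33.2, 32.6, 37.1 and 27.3 in R1, at 0.116, 0.0465, 0 and 0 in R2, and at 0.0401, 0.0779, 0 and 0.0525 in control. All R1 libraries were high and alike, and R2 and control overlapped at a few reads. The R1 mean of 32.6 ± 4.0 rests on 3974 reads, against 5 reads in all R2 libraries and 4 in all control libraries. The ratio of R1 to control was 764, with a counting interval of 298 to 2810, and R2 was 800-fold below R1 (342 to 2460). No difference between R2 and control was detectable at this depth (ratio 0.955, interval 0.206 to 4.81).

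LYSMD1, whose annotated span overlaps TNFAIP8L2, was at 13.4 ± 0.421 in R1, 12.9 ± 2.23 in R2 and 15.1 ± 1.30 in control and passed in no comparison (adjusted p of 0.22 to 0.69). SCNM1, a splicing factor 6395 bases away that also has an annotated readthrough transcript with TNFAIP8L2, fell in R1 (54.7 ± 8.32 against 88.8 ± 10.5 in control, log2 fold change -0.70, adjusted p = 0.00091). The readthrough transcript was not analysed here, so its reads may be counted with either gene. Of 45 tested genes within 1 Mb, 3 rose and 23 fell in R1 and 2 rose and 7 fell in R2 against control. R2 against R1 gave 20 risen and 4 fallen. The relative TNFAIP8L1 rose in R1 (34.9 ± 3.57 against 21.6 ± 1.39 in control, log2 fold change 0.68, adjusted p = 0.00043) and in R2 (36.8 ± 5.67, log2 fold change 0.75, adjusted p = 0.00033). TNFAIP8 passed in neither (adjusted p = 0.25 and 0.23).

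PTPN22 (chromosome 1, 113813811 to 113871759) was at 47.4, 45.7, 37.2 and 52.7 in R1, at 51.5, 34.8, 61.7 and 71.3 in R2, and at 49.9, 55.1, 42.0 and 46.0 in control. All groups overlapped, and R2 had both the highest and the lowest library. Means were 45.8 ± 6.42 in R1, 54.8 ± 15.6 in R2 and 48.2 ± 5.60 in control (SD, n = 4 each), differences within the spread between libraries. The antisense gene AP4B1-AS1, not analysed here, spans PTPN22, and reads of the pair cannot be told apart in an unstranded library.

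The partner and relatives of PTPN22 were measured too. CSK fell in R2 (79.1 ± 8.04 against 127 ± 10.2 in control, log2 fold change -0.68 with an SE of 0.11, adjusted p = 0.00025) and not in R1 (124 ± 11.9, log2 fold change -0.03, adjusted p = 0.85). PTPN12, a PEST-type phosphatase of most tissues, fell in R1 (91.6 ± 8.99 against 126 ± 12.3 in control, log2 fold change -0.46, adjusted p = 0.0068), and PTPN18 passed in neither comparison with control (adjusted p = 0.06 and 0.13). Comparing R2 with R1, 7 of the 16 tested genes within 1 Mb of PTPN22 rose and 2 fell. Against control, 5 of these genes rose and 4 fell in R1, and 10 rose in R2. They include NRAS, 832710 bases away, at 978 ± 109 in R1, 144 ± 24.8 in R2 and 126 ± 12.6 in control, and AP4B1, an adaptor subunit of vesicle transport 22435 bases away, which rose in R1 (37.5 to 42.6 against 16.1 to 18.2 in control, log2 fold change 1.17, adjusted p = 4.1e-07) and in R2 (24.7 to 26.5, log2 fold change 0.55, adjusted p = 0.00058).

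**Figure D2:**
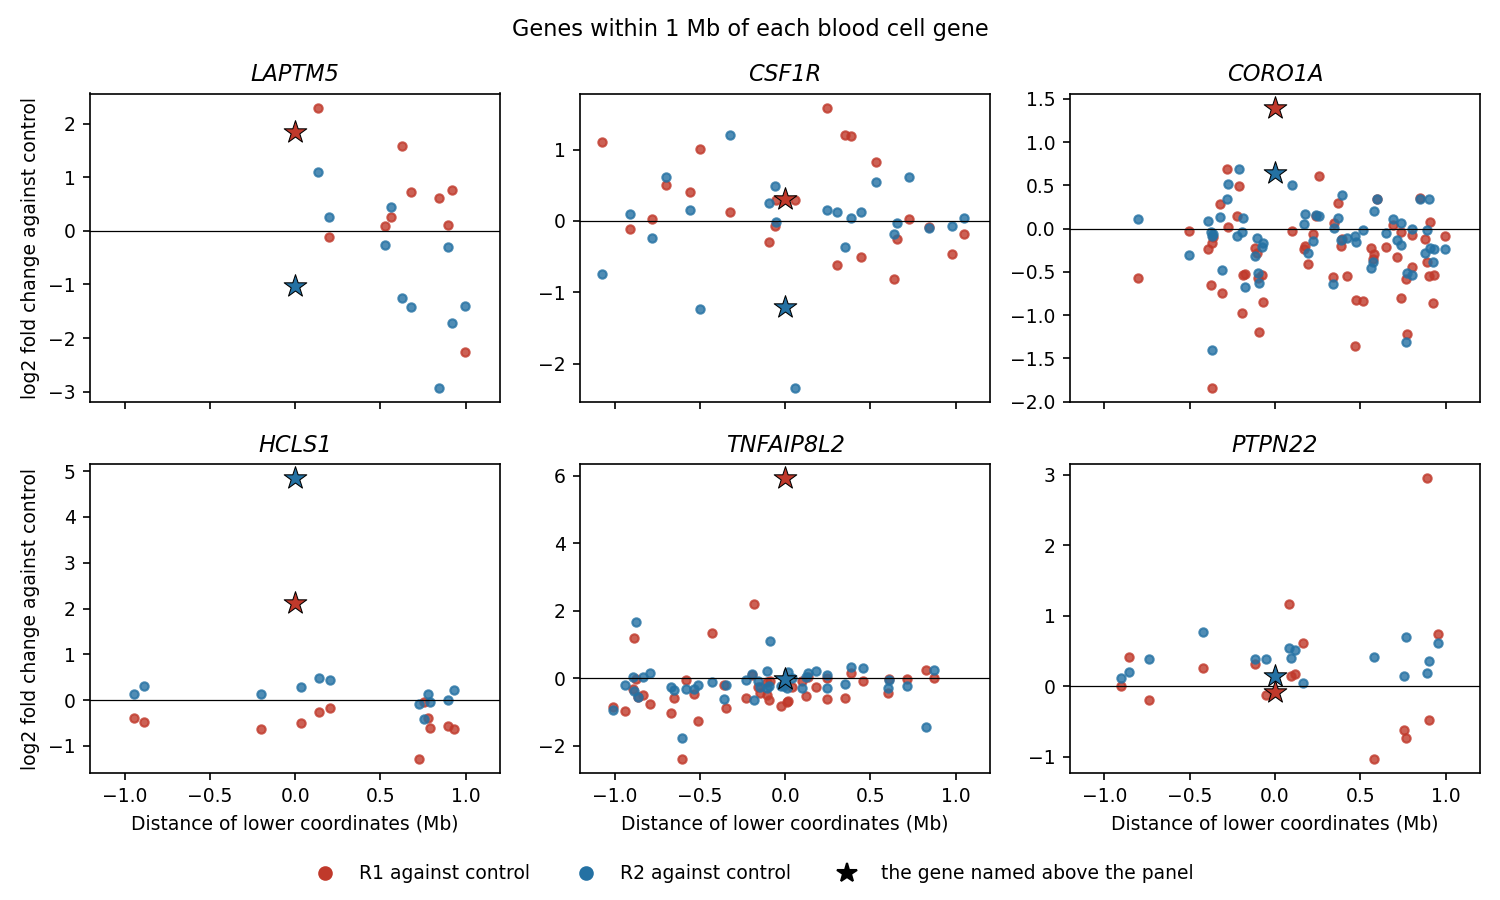
Limma log2 fold change against control, on the log2(value + 0.5) scale, of each tested gene within 1 Mb of a blood cell gene (points) by the distance between the lower coordinates of the genes in Mb, positive towards higher coordinates, with the blood cell gene itself as a star at 0. TNFAIP8L2 and CORO1A in R1 and HCLS1 in R1 and R2 stand above every neighbour drawn, while the points around PTPN22 in R2 lie at or above 0.

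Divided by the exon length of each gene (GENCODE 29), mean levels per kb could be set side by side. In R1, TNFAIP8L2 had the highest level at 27.6 per kb, followed by PTPN22 at 10.2, CORO1A at 3.35 and LAPTM5 at 1.37, with HCLS1 at 0.572 and CSF1R at 0.558. In R2, PTPN22 led at 12.2 per kb, followed by HCLS1 at 4.29 and CORO1A at 1.93, with CSF1R at 0.105, TNFAIP8L2 at 0.0346 and LAPTM5 at 0.0283. In control, PTPN22 was at 10.7 per kb, CORO1A at 1.2, CSF1R at 0.385, LAPTM5 at 0.216, HCLS1 at 0.0444 and TNFAIP8L2 at 0.0362. PTPN22 and CORO1A were thus the members with more than 1 per kb in all groups, while HCLS1 and TNFAIP8L2, the least abundant in control, were the ones that led in R2 and R1 beside PTPN22. Of 5 pairs of neighbours in each order, the library values per kb overlapped for 3 in R1, CORO1A with LAPTM5, LAPTM5 with HCLS1 and HCLS1 with CSF1R. In R2 they overlapped for 2, CSF1R with TNFAIP8L2 and TNFAIP8L2 with LAPTM5, and in control for 2, CSF1R with LAPTM5 and HCLS1 with TNFAIP8L2. These ranges compare different libraries, while both genes of a pair were read in the same ones. Within each R1 library CORO1A stood above LAPTM5 and LAPTM5 above HCLS1, and within each control library CSF1R stood above LAPTM5. The order of the other overlapping pairs changed from library to library. The overlap of CORO1A (2.81 to 4.04 per kb) with LAPTM5 (0.541 to 2.86 per kb) in R1 rests on R1 replicate 2.

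Likeness was measured as the root mean square difference between log2(value + 0.5) profiles over the 12 libraries, each centred on its own mean, and the points share libraries, depth and group. The closest pair, CORO1A and PTPN22, differed by 0.68, LAPTM5 and CSF1R by 0.79, LAPTM5 and CORO1A by 1.02, and HCLS1 and TNFAIP8L2 by 3.56. The genes most like LAPTM5 were ST3GAL5 (0.24), a ganglioside synthase, BPI (0.33), an antibacterial protein of neutrophil granules, and ANXA9 (0.33). BPI had 347 reads in R1, with 180 of them in replicate 2, none in R2 and 25 in control, so that it was at least 120-fold lower in R2 than in R1, against a floor of 3 reads over the group, and at least 64.1-fold lower when R1 replicate 2 was left out. Most like CSF1R were SPNS3 (0.27), MST1 (0.27) and UBA7 (0.30), and most like CORO1A were PIGH (0.15), LAGE3 (0.16) and HARS2 (0.17). Most like HCLS1 were BEX2 (0.49), C1orf94 (0.61) and RP11-1152H15.1 (0.79), and BEX2 was at 1.58 ± 0.669 in R1, 14.1 ± 1.59 in R2 and 0.0826 ± 0.0849 in control. Most like TNFAIP8L2 were G0S2 (0.41), RP11-290D2.6 (0.47) and FAM101A (0.52), and FAM101A was at 17.0 ± 4.12 in R1, 0.0564 ± 0.0427 in R2 and 0.105 ± 0.0495 in control. PTBP2 (0.12) and LRRC8D (0.13), which passed in no comparison (adjusted p of 0.091 to 0.73), were among the 3 genes most like PTPN22.

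Other genes usual in blood cells were taken by name in 5 lists of 145 genes, of which 53 were measured. In R1 against control 12 of the 53 rose and 14 fell (22.6% and 26.4%), with a median log2 fold change of 0.05, close to the shares of all genes. In R2 against control 7 rose and 18 fell (13.2% and 34.0%, against 13.6% and 14.8% of all genes), with a median of -0.11, and 4 rose without control replicate 4. In R2 against R1 15 rose and 18 fell (28.3% and 34.0%, against 22.8% and 24.0% of all genes), with a median of -0.04. The counts of single lists below stand beside these shares of all genes, with 22.4% risen and 21.4% fallen in R1 against control. The genes moved in both directions in every list with more than 1 measured gene.

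CD33, the measured leukocyte marker, was at 9.37, 10.6, 6.83 and 6.33 in R1, at 0.32, 0.326, 0.0936 and 0.0459 in R2, and at 3.53, 3.23, 4.22 and 4.25 in control. As for LAPTM5, no 2 groups overlapped and the order was R1, control, R2. CD33 rose in R1 (8.28 ± 2.03 against 3.81 ± 0.51 in control, log2 fold change 1.01 with an SE of 0.20, adjusted p = 0.0011) and fell in R2 (0.196 ± 0.147, log2 fold change -2.65 with an SE of 0.20, adjusted p = 3e-07).

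Among haematopoietic transcription factors, with 21 of 37 measured, 3 rose and 9 fell in R1 and 3 rose and 7 fell in R2 against control, with medians of -0.42 and -0.05. RUNX3, a regulator of T cell and NK cell fate, was at 6.43 to 8.84 in R1, 0 to 0.229 in R2 and 4.41 to 6.07 in control. It fell in R2 (0.0963 ± 0.0969 against 5.29 ± 0.71 in control, log2 fold change -3.28 with an SE of 0.17, adjusted p = 5.3e-09) and rose in R1 (7.81 ± 1.08, log2 fold change 0.52, adjusted p = 0.02). The R1 call did not hold when R1 replicate 4 or control replicate 1 was left out (adjusted p = 0.059 and 0.066), with edgeR or with a pseudocount of 0.1, and its adjusted p ran from 0.0096 to 0.14 over all alternatives. TCF7, a factor of T cell development, fell in R1 (1.5 ± 0.439 against 10.7 ± 0.628 in control, log2 fold change -2.51, adjusted p = 3.5e-08) and in R2 (0.237 ± 0.0322, log2 fold change -3.93, adjusted p = 4.2e-10). GATA3, another T cell factor, fell in R1 (3.12 ± 0.355 against 10.4 ± 0.797 in control, log2 fold change -1.59, adjusted p = 3.5e-07). EBF1, a factor of early B cells, rose in R1 (5.07 ± 1.01 against 2.20 ± 0.279 in control, log2 fold change 1.03, adjusted p = 0.00058) and in R2 (4.78 ± 1.29, log2 fold change 0.94, adjusted p = 0.0019). RUNX1, of haematopoietic stem cells, rose in R2 against R1 (205 ± 23.1 against 112 ± 13.1, log2 fold change 0.88, adjusted p = 4.7e-05). MYB rose in R2 (2.49 ± 0.34 against 1.44 ± 0.249 in control, log2 fold change 0.63, adjusted p = 0.025). The MYB call was lost in 6 of the alternatives, leaving out R2 replicate 3, R2 replicate 4 and each of control replicates 2, 3 and 4 among them, with an adjusted p of 0.0095 to 0.073 over all alternatives.

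Among leukocyte kinases, phosphatases and adaptors, with 12 of 32 measured, 5 rose and 1 fell in R1, and 1 rose and 6 fell in R2, against control, with medians of 0.27 and -0.25. LCP2, the adaptor SLP-76 of antigen receptor signalling, was at 10.2, 12.7, 7.52 and 7.6 in R1, at 0.174, 0.326, 0.0936 and 0.184 in R2, and at 0.521, 0.818, 0.521 and 0.473 in control. It rose in R1 (9.49 ± 2.46 against 0.583 ± 0.158 in control, log2 fold change 3.18 with an SE of 0.19, adjusted p = 2.1e-08). The adaptor LAT2 rose in R1 as well (7.70 ± 2.50 against 1.39 ± 0.269 in control, log2 fold change 2.08, adjusted p = 8.4e-06) and did not pass in R2 (1.41 ± 0.494, log2 fold change -0.01, adjusted p = 0.98). INPP5D, the lipid phosphatase SHIP1, was at 71.6 ± 16.2 in R1, 21.8 ± 4.50 in R2 and 37.8 ± 6.28 in control, and rose in R1 (log2 fold change 0.9, adjusted p = 0.00082) and fell in R2 (-0.79, adjusted p = 0.0036). PTPN7 fell in R1 (1.78 ± 0.326 against 4.31 ± 0.523 in control, log2 fold change -1.08, adjusted p = 0.0073). VAV1, a guanine exchange factor of blood cells chosen after its values were seen, had no read in R2, 309 in R1 and 78 in control, so R2 was at least 31.3-fold lower than control. The floor of 3 reads over the 109416228 reads of the R2 group covers counting error only.

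Among leukocyte actin and trafficking proteins, with 11 of 25 measured, 2 rose and 1 fell in R1 and 1 rose and 3 fell in R2 against control, with medians of 0.05 and -0.26. DOCK2, an exchange factor for RAC in leukocytes, rose in R2 (11 ± 1.98 against 4.36 ± 0.79 in control, log2 fold change 1.24, adjusted p = 0.0016). CAPG, which caps actin filaments, fell in R2 (42.3 ± 6.23 against 92.4 ± 20.3 in control, log2 fold change -1.10, adjusted p = 0.00043), as did the formin FMNL1 (71.3 ± 7.45 against 112 ± 14 in control, log2 fold change -0.64, adjusted p = 0.00059). ARHGAP30, a GTPase-activating protein of leukocytes, rose in R1 (263 ± 27.0 against 154 ± 6.55 in control, log2 fold change 0.77, adjusted p = 0.00015). PSTPIP2 fell in R1 (1.26 ± 0.664 against 4.12 ± 0.462 in control, log2 fold change -1.46, adjusted p = 0.00042). LCP1, the plastin of leukocytes, rose in R2 against R1 (5.07 ± 4.19 against 0.652 ± 0.913, log2 fold change 2.14 with an SE of 0.56, adjusted p = 0.0065).

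Among leukocyte surface receptors, with 8 of 26 measured, 1 rose and 3 fell in R1 and 2 rose and 1 fell in R2 against control, with medians of -0.13 and 0.01. ITGB2, the shared beta chain of leukocyte integrins, was at 6.6, 6.98, 8.85 and 8.16 in R1, at 5.9, 1.68, 3.87 and 3.95 in R2, and at 0.801, 0.467, 0.834 and 0.42 in control. It rose in R1 (7.64 ± 1.04 against 0.631 ± 0.217 in control, log2 fold change 2.86 with an SE of 0.27, adjusted p = 1.5e-06) and in R2 (3.85 ± 1.73, log2 fold change 1.86, adjusted p = 0.00013). Both groups thus lay above control for ITGB2, as for CORO1A and HCLS1. CD53, a tetraspanin of leukocytes, was at 0.777, 0.79, 0.418 and 0.0927 in R1, at 2.5, 2.93, 11.7 and 12 in R2, and at 0.0401, 0.0779, 0 and 0.0525 in control. It rose in R2 (7.30 ± 5.29, against 0.0426 ± 0.0325 in control on 4 reads, log2 fold change 3.54 with an SE of 0.43, adjusted p = 2.9e-05) and in R2 against R1 (log2 fold change 2.70, adjusted p = 0.00017). CD53 and HCLS1 were both highest in R2, but R2 replicates 3 and 4 were high for CD53 and low for HCLS1. EVI2B fell in R1 (2.58 ± 0.787 against 22.5 ± 4.52 in control, log2 fold change -2.91, adjusted p = 1.9e-05) and in R2 (6.83 ± 4.76, log2 fold change -1.85, adjusted p = 0.0014).

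**Figure D3:**
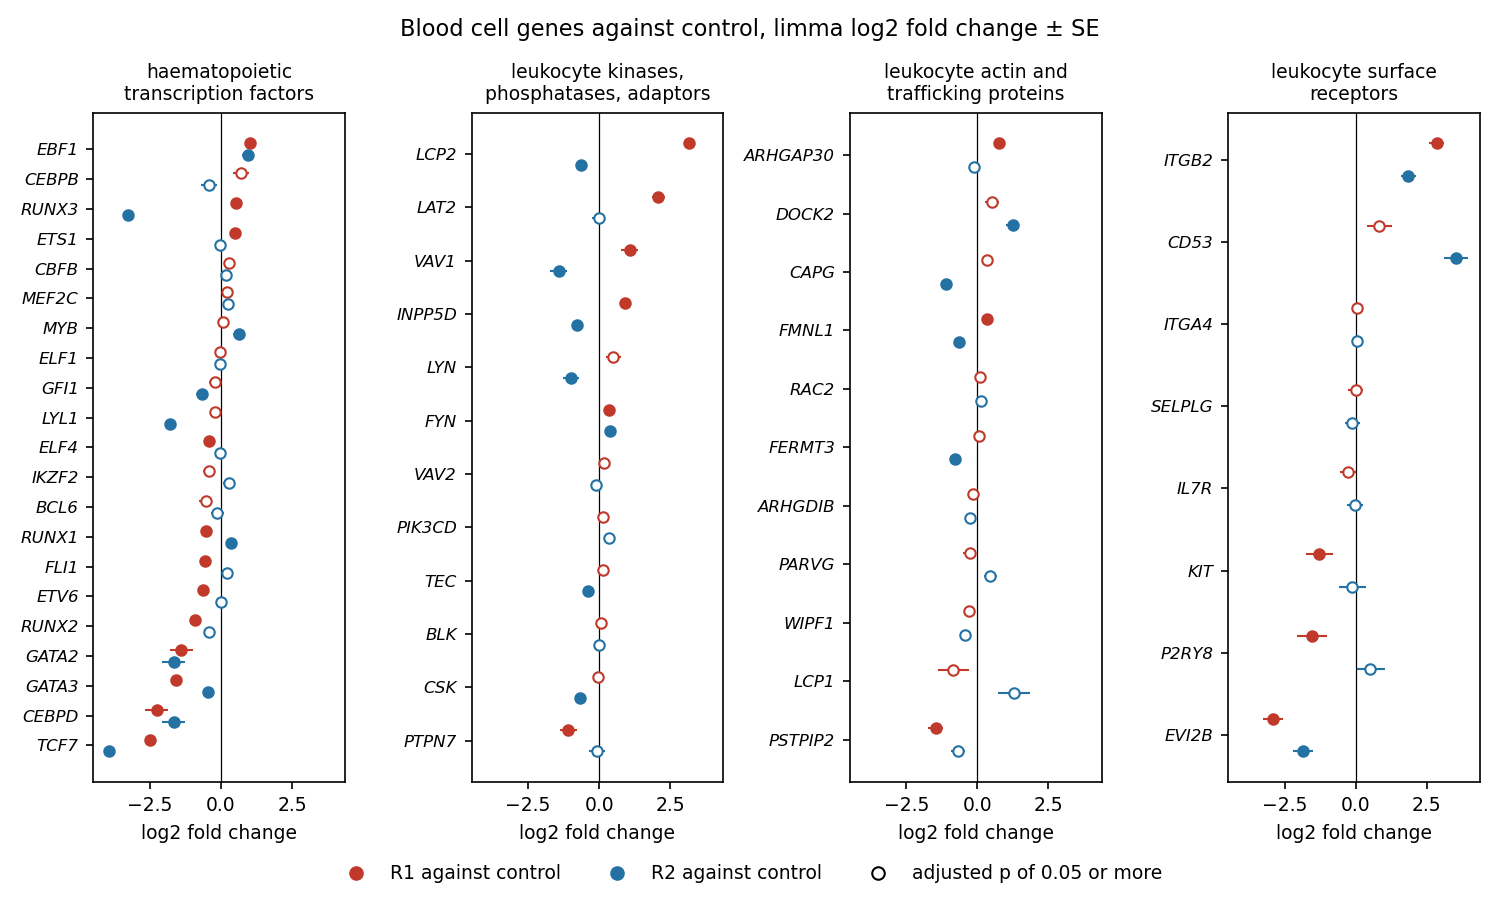
Limma log2 fold change ± SE against control, on the log2(value + 0.5) scale, of the measured genes in 4 lists usual in blood cells, ordered by R1 against control, with filled points where the adjusted p was under 0.05. LCP2 (3.18) and ITGB2 (2.86) have the highest values in R1 and CD53 (3.54) in R2, while TCF7 (-3.93) and RUNX3 (-3.28) have the lowest in R2.

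**Figure D4:**
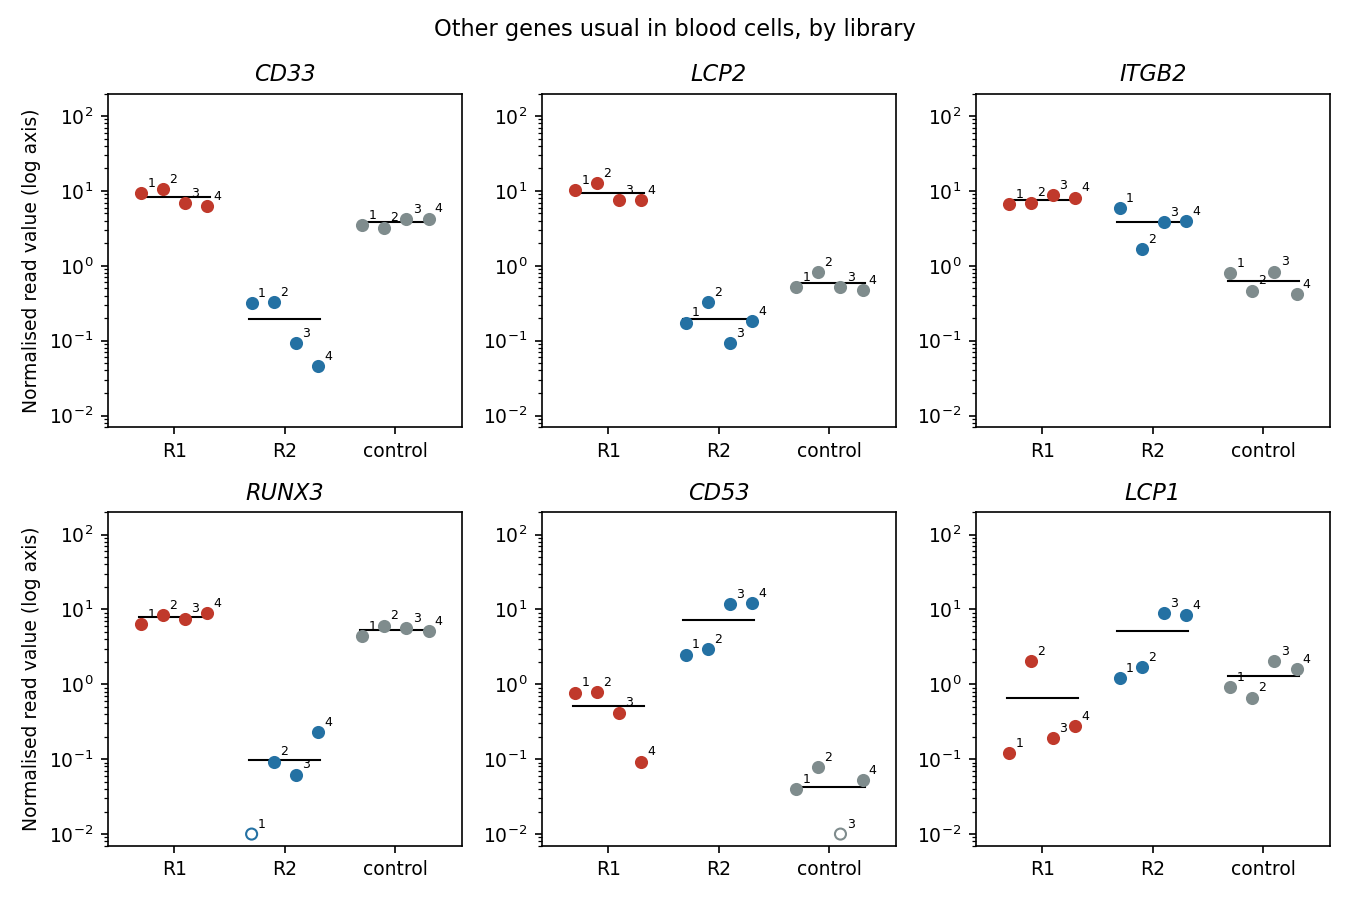
Normalised read value of CD33, LCP2, ITGB2, RUNX3, CD53 and LCP1 in every library (log axis, replicate numbers beside the points, bars at the group mean of 4, open circles at 0.01 for libraries without a read). R2 is lowest for CD33, LCP2 and RUNX3 and has the highest mean for CD53 and LCP1, whose R2 libraries lie far apart.

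Markers of other cell types were read beside these genes. Of 13 endothelial markers 5 were measured, with summed values of 453 to 602 in R1, 156 to 213 in R2 and 181 to 223 in control. TIE1, an endothelial receptor kinase, made up most of that sum (394 ± 54.6 in R1, 135 ± 14 in R2 and 139 ± 14.6 in control). Of 11 red blood cell markers 2 were measured, HBE1 and HBG2, which summed to 0.0309 to 0.19 in R1, 48.2 to 80.6 in R2 and 21.8 to 38.7 in control. Of 12 fibroblast and pericyte markers 7 were measured, with sums of 618 to 733 in R1, 750 to 848 in R2 and 656 to 779 in control. THY1, also a marker of other cells, made up most of that sum (491 ± 52 in R1, 553 ± 71.9 in R2 and 420 ± 34.5 in control). Other markers moved in both directions, and over the 7 markers 1 rose and 3 fell in R2 against control, while 2 rose and 4 fell in R2 against R1 (median -1.25 on the log2 scale). LUM, a proteoglycan of connective tissue, fell in R2 (2.02 ± 0.341 against 6.66 ± 2.29 in control, log2 fold change -1.46, adjusted p = 0.0017). The endothelial sum was thus high in R1, where TNFAIP8L2, LAPTM5, CD33 and LCP2 were high. Its R2 and control ranges overlapped, while LAPTM5, CD33 and LCP2 were lower in R2 than in control. TIE1 sets that sum, and single endothelial markers differed from it. EGFL7 was at 16.2 ± 3.32 in R1, 0.00727 ± 0.0145 in R2 on 1 read and 3.61 ± 1.04 in control, the order of LAPTM5 and CD33. Of the 5 endothelial markers 2 fell and 3 did not pass in R2 against control, where 14.8% of all genes fell. All 5 fell in R2 against R1, where 24.0% of all genes fell. The red cell sum was highest in R2, as were HCLS1 and CD53. It was lower in R1 than in control, while HCLS1 was higher in R1. The part of these markers in the results was not tested. MHC class II genes are used by antigen-presenting leukocytes, and 9 of 10 were measured. Of these 8 rose in R1 and 6 in R2 against control (88.9% and 66.7%, against 22.4% and 13.6% of all genes). Their summed values were 1880 to 3120 in R1, 660 to 758 in R2 and 646 to 1130 in control. The R2 sum thus overlapped that of control, although HLA-DRA was at 111 ± 19.2 in R1, 22.1 ± 5.25 in R2 and 3.90 ± 1.12 in control.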

How the data were processed

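RNA was sequenced in 12 libraries of WM1366, 4 each in R1, R2 and control, after extraction with a Qiagen RNeasy kit and library preparation with TruSeq version v2 reagents, per the labels, a kit that does not mark strand. STAR, edgeR and GRCh38 are named in the submitters' processing notes, with versions and settings not given in the sources used here. The authors deposited 1 normalised signal per gene, gene reads scaled by library size, for 12931 rows with 12929 distinct symbols. The low values showed what 1 read was worth in each library, and dividing by it gave whole reads for 100% of values, with a tolerance of 0.001 reads.

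Values were compared with limma 3.58.1 in R 4.3.3 on log2(value + 0.5), with all 12 libraries and 3 group means in 1 fit, a mean-variance trend and no further filter. Two-sided p-values took a Benjamini-Hochberg adjustment across all rows, with calls at an adjusted p under 0.05. Adding 0.5 shrinks the fold change of a gene with few reads. Of the members, no p-value is given: folds are ratios of group means, with exact binomial (Clopper-Pearson) 95% intervals for counting error alone, as PCR duplicates of a molecule are not separate molecules. A value of 3 reads was 0.0728 to 0.158 in a library. On recovered reads, edgeR 4.0.16 made 5645 calls comparing R1 with control, 3564 comparing R2 with control and 5988 comparing R2 with R1, and DESeq2 1.42.0 made 5869, 3948 and 6206. The fits were tested on simulated data. No pair of libraries in a group agreed within sampling noise (chi-square per gene of 11.4 to 115). In control, replicates 1 and 2 (16.2) and replicates 3 and 4 (11.4) were closer than pairs across them (44.6 to 77.9). R1 was not split in this way, with 109 for replicates 1 and 2 and 41 for replicates 1 and 4. R2 was split in part. Its replicates 1 and 2 were the closest pair at 37.6, and replicates 3 and 4 gave 50.7. Pairs across them in R2 gave 49.7 to 115, the lowest for replicates 1 and 4. What such pairs mean for the p-values was not tested.

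In each list and comparison up to 2 risen and 2 fallen genes with the smallest adjusted p could be named where the higher of both group means reached 1, with the nearest tested gene on each side of a member and the 3 most alike profiles, 1 of which is not reported here. Genes outside this rule are family relatives and genes given as values. The members, lists and rule were chosen with earlier results of these data known. Of the symbols, 12209 were placed on GRCh38.p14 by RefSeq symbol or synonym, and all 6 members had a RefSeq promoter. Alternatives were other pseudocounts, a filter, other scalings, edgeR, DESeq2, fits of 2 groups, a replicate block and leaving out each library.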

Additional observations from a re-analysis of the deposited data

Results flagged for a closer look

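LAPTM5 in R2 replicate 3 was at 0.25, with 8 reads, far from the other R2 libraries at 0.0291 to 0.0465, with 1 read each. Its gap to the nearest of them took 0.921 of the group's range, above Dixon's critical value for a group of 4. Of 18 groups of 4 values examined this was the only one set apart. Chance sets about 1 in 20 groups apart, so 1 among 18 is near what chance gives. With 1 to 8 reads behind the values, the critical value is a rough guide.

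LAPTM5 also went in opposite directions in R1 and R2. Every R1 library lay above and every R2 library below every control library, with log2 ratios of group means of 2.66 for R1 against control and -2.93 for R2 against control. The difference was not tested, since the gene was chosen for these levels.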

How the results depend on the processing

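Counts of called genes stayed within 1.5 times their main value under all alternatives run, except for blood cell genes that rose in R2 against control, with 7 calls and 4 to 8 when single libraries were left out, the lowest without control replicate 4. The replicate numbers did not pair the libraries (correlations of deviations between -0.31 and 0.39 over 12 pairs). With a replicate block 12 blood cell genes rose and 14 fell in R1, 7 and 17 in R2 against control, and 16 and 18 in R2 against R1, so no count of calls moved by more than 1.5 times.

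Log2 ratios of group means of the 6 genes were counted as near the main value in 184 of the alternatives, as moved in 26 and as turned in sign in 6. A move was not always large beside the spread between libraries. LAPTM5 in R2 against control counted as moved at -2.63 without R2 replicate 1, against -2.93, with R2 libraries at 0.0291 to 0.25. As the difference of mean log2(value + 0.5), which shrinks low values, LAPTM5 became 1.84 in R1 and -1.03 in R2 against control and -2.87 in R2 against R1. On that scale CSF1R became -1.2 in R2 against control and -1.51 in R2 against R1, HCLS1 2.13 in R1 and 4.84 in R2 against control, and TNFAIP8L2 5.92 in R1 against control and -5.93 in R2 against R1. As a ratio of medians, LAPTM5 became -3.77 in R2 against control, CSF1R -1.80 in R2 against R1, and TNFAIP8L2 -0.99 in R2 against control and -10.47 in R2 against R1. With single libraries left out, LAPTM5 ranged from 2.02 to 2.93 in R1 against control, from -4.13 to -2.63 in R2 against control and from -6.79 to -4.95 in R2 against R1. CSF1R ranged from -1.71 to -2.64 in R2 against R1 and from -0.17 to 0.86 in R1 against control, below 0 without R1 replicate 2 alone. TNFAIP8L2 ranged from 9.16 to 10.04 in R1 against control and from -11.04 to -9.23 in R2 against R1. Its ratio of R2 to control, on 5 and 4 reads, ranged from -1.46 to 0.40, turning to 0.35 without R2 replicate 3 or 4, to 0.40 without control replicate 2 and to 0.05 without control replicate 4. PTPN22 in R1 against control ranged from -0.15 to 0.01, above 0 without R1 replicate 3. The fewer reads of low genes limit these ratios, and the cause of the other changes was not tested.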

Other observations

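Several blood cell genes varied widely within a group, and were chosen here after their values were seen. LCP1 was at 1.22, 1.68, 8.99 and 8.4 in R2 replicates 1 to 4, and P2RY8, a receptor of B cells, at 7.79, 9.26, 24.5 and 26.0. CD53 had the same libraries high, replicates 3 and 4, while HCLS1 had replicates 1 and 2 high. In R1, KIT, the stem cell factor receptor of blood and pigment cells, was at 9.49 and 10.7 in replicates 1 and 2 and at 1.33 and 2.26 in replicates 3 and 4. R1 replicate 2 was the highest R1 library for LAPTM5, CSF1R, LCP1, P2RY8, BPI, PDGFRB and INPP5D, and not for TNFAIP8L2, CORO1A, HCLS1 or PTPN22.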
